A study of Mus musculus with 3 samples.

Results

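The nuclear genes for the respiratory chain and ATP synthase were examined in chromatin-fraction RNA of mouse macrophages. Members were taken by symbol (Nduf genes of the a, b, c, s and v series, Sdha to Sdhd, Uqcr, Cox4 to Cox8 and Atp5), with at least 1 transcript annotated as protein-coding and without pseudogene symbols. This gave 84 genes with 83 symbols, out of 55536 annotated genes, of which 21901 had a protein-coding transcript. By their symbols 36 belonged to complex I, 4 to complex II, 8 to complex III, 18 to complex IV and 18 to complex V. The symbol Atp5o had a second gene identifier, which was listed at 0 in the 3 libraries and was kept as a member.

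The libraries came from primary macrophages grown from bone marrow of C57BL/6J mice whose sex and age were not recorded. The cells were exposed to Lipid A, the lipopolysaccharide component sensed by TLR4, at 100 ng/ml for 12 h, kept without it for 12 h, and given 100 ng/ml again for 15 min. All 3 libraries share this treatment and form 1 group, and no untreated or singly stimulated cells were analysed here, so no value below is a response to Lipid A. The labels name the libraries as biological replicates 1, 2 and 3 but give 1 donor identifier for all of them, and part of their spread could be technical.

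Oxidative phosphorylation passes electrons from NADH and succinate through complexes I to IV to oxygen while protons are pumped out of the mitochondrial matrix, and complex V uses their return to make ATP. Most of the subunits are encoded in the nucleus, and a small set, including the proton-pumping cores, is encoded in mitochondrial DNA. In macrophages activated through TLR4 the chain is known for a shift away from ATP production, with succinate oxidation at complex II and electron flow at complex I as sources of reactive oxygen.

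The alignment-based gene tables held 14609979, 17423948 and 24162551 expected counts in replicates 1, 2 and 3. The members took 10787, 13118 and 17009 of them, or 0.0737% ± 0.00272 (SD, n = 3) of the counts of annotated genes. Macrophage markers were high (8 of 8 listed genes above 1 TPM, median log2(TPM + 1) of 6.45 ± 0.15, SD, n = 3). Median levels of the neutrophil, dendritic, lymphocyte, stromal, muscle and germ cell lists lay between 0.00 and 0.40 on the same scale. Of their genes Zbtb46 (1.58 TPM) and Pecam1 (1.31 TPM) reached a mean of 1 TPM in the alignment-based tables. In the read-based tables Actn2 (28.7 TPM), Cd3d (15.2), Cxcr2 (4.61), Ckm (2.23), Mpo (1.91) and Col1a1 (1.61) did too, and Pecam1 read 9.81. The stromal genes Col3a1 and Col1a1 had 0 and 1 counts in replicate 1 but 25 and 38 in replicate 2 and 32 and 47 in replicate 3. The part of such RNA in the members' values was not tested. TPM is a level per transcript length, scaled so that every library has an equal sum. In bulk RNA, fewer cells with a transcript and less of it per cell cannot be told apart.

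Most of the chain was present in the chromatin-fraction RNA at a moderate level. A mean of at least 1 TPM was reached by 74 of 84 members (88.1%), against 48.5% of all genes with a protein-coding transcript. The median member stood at 3.20, 3.17 and 3.22 on the log2(TPM + 1) scale in replicates 1, 2 and 3 (3.19 ± 0.03, SD, n = 3). Among the 74 members with a mean count of at least 10, called detected below, the median was 3.35 ± 0.02, close to the 3.44 ± 0.03 of the 11724 detected protein-coding genes. The order turned in the read-based tables, with 4.19 ± 0.05 for these members and 3.93 ± 0.01 for those genes (SD, n = 3). In the alignment-based tables the members ranged widely, with 19 at 20 TPM or more and 10 below 10 counts. Those 10 were the 7 tissue-restricted complex IV genes, Ndufa1, Ndufb6 and the second identifier of Atp5o. Mitochondrial ribosomal protein genes had a median of 2.76 ± 0.03, mitochondrial carriers of the Slc25a series 2.99 ± 0.08 and cytosolic ribosomal protein genes 4.28 ± 0.03 (SD, n = 3).

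**Figure D1:**
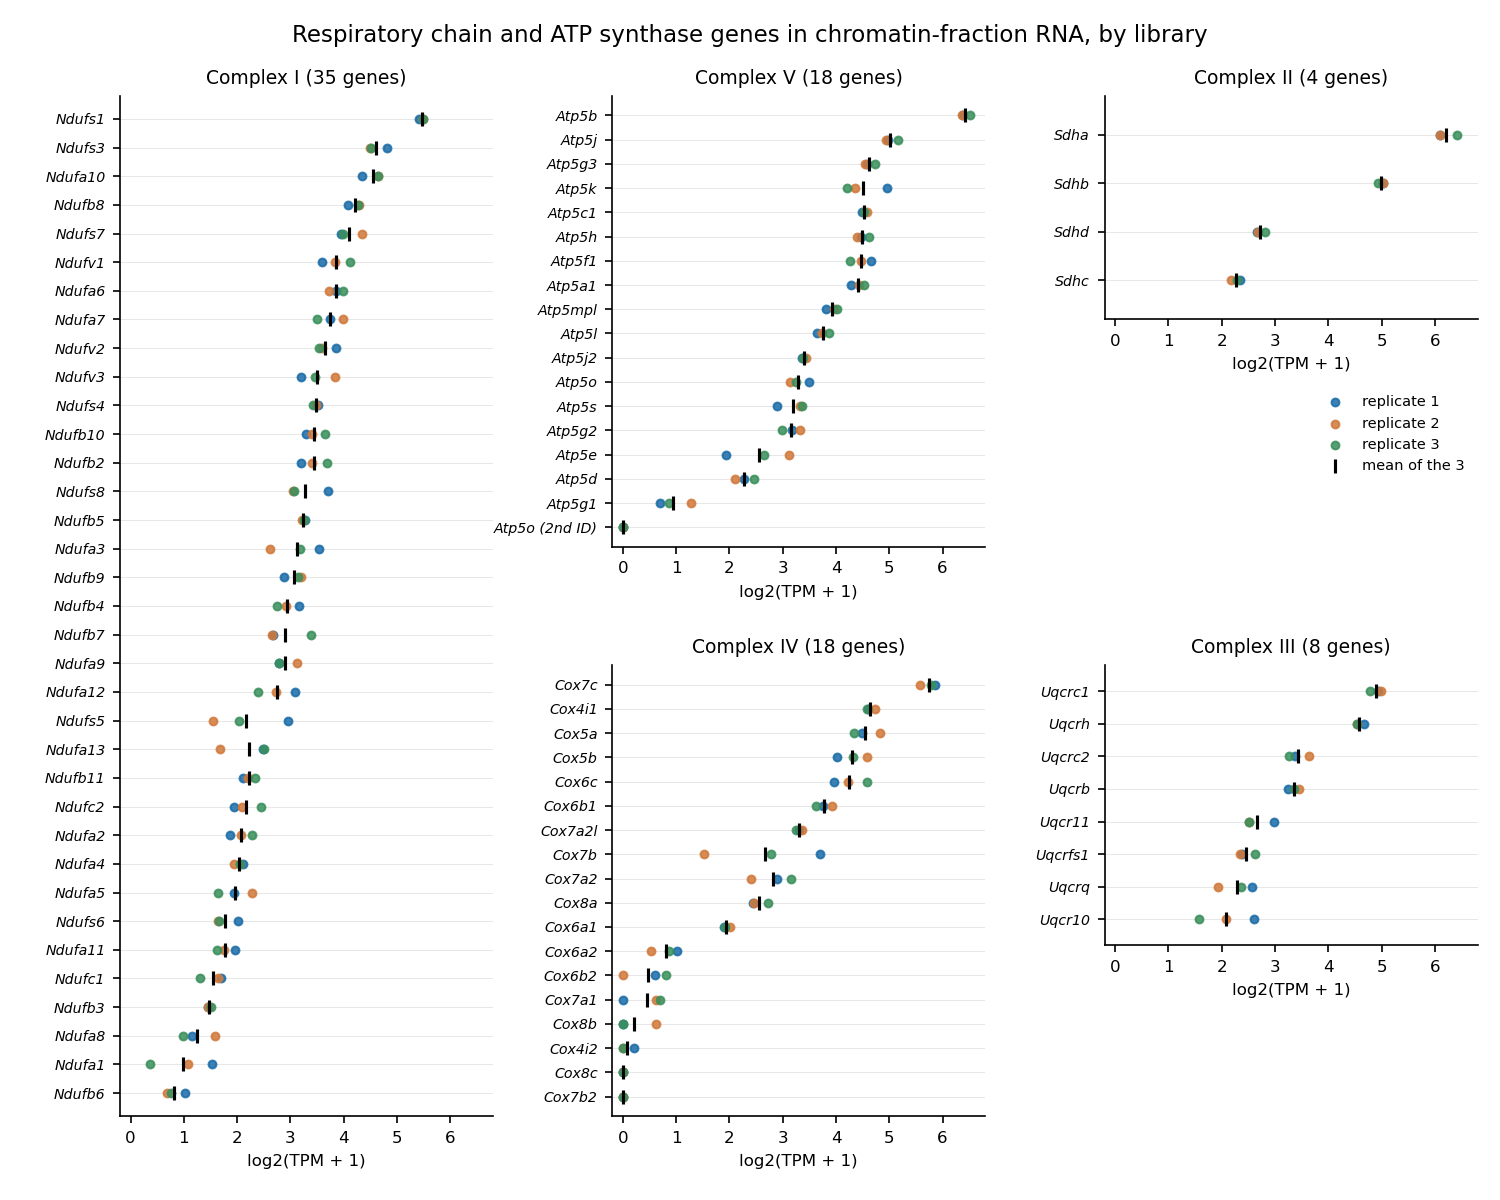
Level of 83 of the 84 genes as log2(TPM + 1) (x axis), by complex and ordered by mean TPM (y axis). Coloured points are the 3 libraries and the black tick is their mean on this scale; Atp5b and Sdha stand highest, and the tissue-restricted complex IV genes lie at the foot of their panel.

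Complex I takes electrons from NADH. Its 7 nuclear core subunits carry the flavin and the iron-sulphur clusters and are shared with the bacterial enzyme, and the other 29 genes grouped here by symbol are nearly all accessory subunits. The core genes stood higher, with medians of 3.96, 4.34 and 4.12 on the log2(TPM + 1) scale (4.14 ± 0.19, SD, n = 3) against 2.78, 2.62 and 2.50 for the others (2.63 ± 0.14). The library values of the groups did not overlap. In the read-based tables the medians were 5.40 ± 0.02 and 3.40 ± 0.05. The core genes were also longer, with a median main coding transcript of 1623 nt against 704 nt for the others. The part of length in this gap was not tested.

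Ndufs1 (chr1:63143596-63176833, minus strand, mm10), which carries iron-sulphur clusters next to the NADH site, was the highest complex I gene at 41.5, 43.6 and 44.0 TPM. Ndufs3, a core subunit of the connecting arm, read 26.9, 21.5 and 21.7 TPM. Ndufs1 stayed within a narrow band across the libraries and lay above Ndufs3 in each of them. The core gene with the lowest mean was Ndufs8, which holds iron-sulphur clusters close to the quinone site, at 12.1, 7.23 and 7.34 TPM. Replicate 1 was the high library for Ndufs8, and there it lay above Ndufv1. In the read-based tables Ndufs8 (36.6 ± 7.95 TPM) was above Ndufv1 (23.7 ± 4.62) and Ndufv2 (26.1 ± 1.41) in the mean. Between these lay Ndufs7 at 14.5, 19.2 and 14.8 TPM, Ndufv1, which binds NADH and the flavin, at 11.0, 13.3 and 16.4, and its partner Ndufv2 at 13.4, 11.0 and 10.6. Ndufv1 overlapped both, and Ndufs7 lay above Ndufv2 in each library.

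The accessory subunits of complex I covered a range from 22.5 TPM for Ndufa10 down to 0.777 TPM for Ndufb6, and 27 of 28 reached 1 TPM. Ndufa10, a matrix-side subunit, read 19.2, 24.1 and 24.1 TPM and Ndufb8 of the membrane arm 16, 18.6 and 18.2, and Ndufs4, whose loss causes Leigh syndrome, read 10.5, 10.1 and 9.77. Ndufb6, a subunit of the membrane arm and the lowest complex I gene, read 1.03, 0.61 and 0.69 TPM on 5, 4 and 5 counts. Ndufa4, named as a complex I gene but found with complex IV in the assembled chain, read 3.30, 2.82 and 3.14 TPM. AA467197 (Nmes1), a protein that can take its place in activated macrophages, read 1.51, 0 and 0.83 TPM on 11, 0 and 9 counts. Ndufa4 was above AA467197 in 3 of 3 libraries, and the latter varied from 0 counts to 11. Ndufa4l2, another replacement protein linked to low oxygen, rested on 2 to 3 counts per library.

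Complex II oxidises succinate and is the only complex of the chain with no mitochondrially encoded subunit. Its 4 genes split into a high and a low pair. Sdha (chr13:74322254-74350280, minus strand), the flavoprotein that binds succinate, read 67.8, 67.2 and 84.8 TPM. Sdhb, the iron-sulphur subunit, read 31.4, 31.8 and 29.4 TPM. The membrane anchors were lower in each library, with Sdhd at 5.33, 5.41 and 6.04 TPM and Sdhc at 4.05, 3.51 and 3.86 TPM. The catalytic pair had a median of 5.60 ± 0.06 and the anchors 2.49 ± 0.06 on the log2(TPM + 1) scale (SD, n = 3), with no overlap. In mean TPM Sdha was second among all members after Atp5b, an order that turned in the read-based tables, where Sdha read 109.7, 105.9 and 128.3 TPM and Atp5b 73.8, 71.6 and 71.6. Sdhc is one of the genes on which the deposited quantifications differed, with 16.6 ± 2.32 TPM in the read-based tables, above the 5.75 ± 0.328 of Sdhd there.

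Complex III passes electrons from ubiquinol to cytochrome c, and all 8 of its genes were above 1 TPM. Uqcrc1 (chr9:108936633-108949623, plus strand), a core protein of the matrix side, read 29.5, 30.7 and 26.4 TPM. Uqcrh, the hinge protein that contacts cytochrome c1, read 24.6, 22.1 and 22.3 TPM. Uqcrc2, the partner core protein of Uqcrc1, stood at 9.41, 11.4 and 8.60 TPM, below Uqcrc1 in each library. In the read-based tables the core proteins were closer, at 33.7 ± 3.42 TPM for Uqcrc1 and 28.4 ± 1.77 for Uqcrc2 (SD, n = 3). Uqcrfs1, the Rieske iron-sulphur protein, read 4.23, 4.08 and 5.14 TPM. Of the other small subunits Uqcrb read 9.21 ± 0.761, Uqcr11 5.42 ± 1.26 and Uqcrq 3.98 ± 1.09 TPM (SD, n = 3). The lowest gene was Uqcr10, a small accessory subunit, at 5.09, 3.22 and 1.99 TPM on 16, 11 and 8 counts, too few to order the libraries. In the read-based tables Uqcrfs1 was lowest, at 3.66 TPM, below 7.10 for Uqcr10.

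Complex IV reduces oxygen with mitochondrially encoded subunits that are surrounded by nuclear ones. The 11 genes that are not tissue-restricted, Cox7a2l among them, had a median of 3.77 ± 0.15 on the log2(TPM + 1) scale (SD, n = 3). Cox7c (chr13:86044816-86046904, minus strand), a small membrane subunit, was highest at 57.2, 46.7 and 53.9 TPM. Cox4i1, the nucleotide-binding regulatory subunit, read 23.3, 25.4 and 22.9 TPM, and Cox5a, a matrix-side subunit, read 21.5, 27.3 and 19.3 TPM. Cox7c lay above both in each library, whereas Cox4i1 and Cox5a overlapped. The read-based tables gave another order, with Cox4i1 at 69.0, 73.6 and 70.6 TPM next to Cox7c at 67.4, 79.7 and 75.2, and Cox5a lower at 19.9, 21.6 and 17.1. Cox5b, which binds zinc, read 15.2, 22.8 and 18.9 TPM and Cox6c 14.6, 17.6 and 22.8. Cox7a2l, which joins complexes III and IV into supercomplexes and is no core subunit, read 8.84, 9.24 and 8.49 TPM.

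Several complex IV subunits exist as a common form and a form known from muscle, lung or testis. None of the 7 tissue-restricted genes reached 1 TPM in the mean of the libraries. Cox4i2, the lung form of Cox4i1, had 1, 0 and 0 counts, and Cox7a1, the heart and muscle form of Cox7a2, had 0, 2 and 3. Cox6a2 had 6, 3 and 7 counts (1.02, 0.45 and 0.81 TPM), Cox6b2 had 2, 0 and 4, and Cox8b had 0, 1 and 0. Cox7b2 and Cox8c, known from testis, had 0 counts in the 3 libraries.

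The common partners were far higher in most pairs. Cox6b1 read 12.5, 14.2 and 11.4 TPM, Cox7a2 read 6.4, 4.32 and 7.87, Cox8a read 4.45, 4.50 and 5.64, and Cox6a1 read 2.74, 3.01 and 2.79. Cox7b, at 12.0, 1.86 and 5.87 TPM on 39, 14 and 46 counts, was the member whose libraries lay farthest apart (SD of 1.10 on the log2 scale). The common gene was above its tissue-restricted partner in 3 of 3 libraries in each of the 7 pairings. Over pairings the median difference was 2.89, 1.85 and 2.73 (2.49 ± 0.56 on the log2(TPM + 1) scale, SD, n = 3), or 1.86 ± 0.33 with each restricted gene set no lower than 3 counts per library. Taking 3 counts per library as the limit for a gene at 0, Cox7b stood at 16.7, 2.82 and 11.5 times the limit of Cox7b2 in replicates 1, 2 and 3. Cox8a stood at 4.65, 4.91 and 8 times the limit of Cox8c. The uncertainty of Cox7b and Cox8a themselves is not part of these folds.

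The read-based tables changed part of this. There 5 of the 7 restricted genes passed 1 TPM, led by Cox7a1 at 9.29, 10.6 and 8.30 TPM and Cox8b at 3.29 ± 0.83 (SD, n = 3). Cox7b2 was not at 0 there, with 1.83, 0.677 and 1.49 TPM beside 24, 22 and 16.2 for Cox7b. Cox7a2 was also higher there, at 34.5 ± 3.17 TPM, and the median pairing difference was 3.23 ± 0.50. Of the 5 muscle markers, Actn2 read 28.7 TPM in the read-based tables and 0 in the alignment-based ones, and the other 4 read 0 to 2.23 and 0 to 0.0833 TPM. Whether reads of other transcripts enter the read-based values of the restricted genes was not tested.

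**Figure D2:**
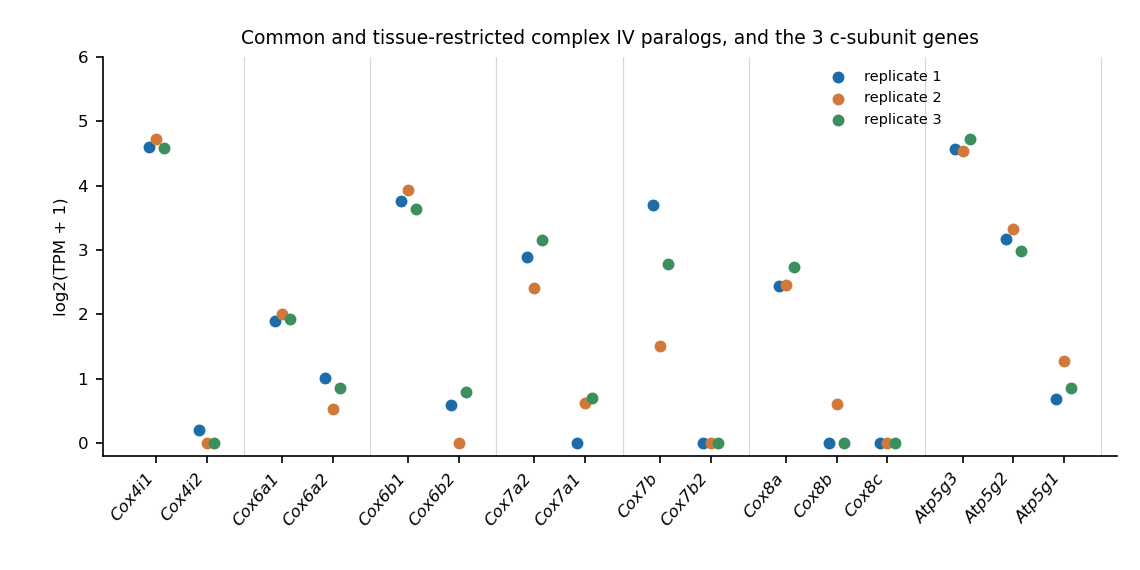
Level as log2(TPM + 1) (y axis) of the common and tissue-restricted complex IV genes and of the c-subunit genes (x axis), with 1 point for each library. The common form lies above its partner in every library, and Atp5g3 lies above Atp5g2 and Atp5g1.

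Complex V makes ATP in its F1 head, driven by rotation of a membrane ring of c subunits. Atp5b (chr10:128083273-128090391, plus strand), the catalytic beta subunit, had the highest mean of all members in the alignment-based tables, at 82.0, 81.7 and 90.9 TPM. Atp5a1, the alpha subunit that alternates with beta in the head, read 18.4, 20.7 and 21.9 TPM; it was named after its values were seen, because beta and alpha are needed in equal number in the enzyme. Atp5b lay above Atp5a1 in each library and in the read-based tables, at 72.4 ± 1.25 against 25.1 ± 2.58 TPM (SD, n = 3). Atp5j, coupling factor F6 of the peripheral stalk, read 30.4, 29.5 and 34.6 TPM.

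The rest of the head differed in level. Atp5c1, the gamma subunit of the rotating shaft, read 21.4, 23 and 21.9 TPM, beside Atp5a1. Its small partners were lower in each library, with Atp5d, the delta subunit, at 3.8, 3.31 and 4.47 TPM and Atp5e, the epsilon subunit, at 2.80, 7.62 and 5.30. In the peripheral stalk Atp5f1 read 24.3, 21.2 and 18.1 TPM, Atp5h 21.1, 19.9 and 23.6, and Atp5o 10.2, 7.74 and 8.50. Atp5o was the low gene of the stalk in each library. Of the other membrane subunits Atp5k read 30, 19.6 and 17.4 TPM, with replicate 1 highest, and Atp5mpl, Atp5l and Atp5j2 had means of 14.2 ± 1.01, 12.5 ± 1.06 and 9.52 ± 0.318 (SD, n = 3).

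By role, the head and central stalk had a median of 4.41 ± 0.12 on the log2(TPM + 1) scale, the peripheral stalk 4.37 ± 0.11 and the c-subunit genes 3.16 ± 0.17 (SD, n = 3). The stalk median is over 5 entries, with the second identifier of Atp5o at 0 among them, which lowers it. The order of head and stalk therefore cannot be read from these medians. The lowest members of the complex were the second identifier of Atp5o, at 0, and Atp5g1. Atp5s, factor B, which is needed for coupling but is no standard subunit, read 6.44, 8.95 and 9.22 TPM. Complex V as a whole had a median of 3.73, 3.85 and 3.94 and complex I of 3.12, 2.98 and 3.10. Complex V was higher in 3 of 3 libraries, by 0.77 ± 0.14 (SD, n = 3). No test was made, since flipping signs in 3 libraries has 0.25 as its smallest exact p.

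**Figure D3:**
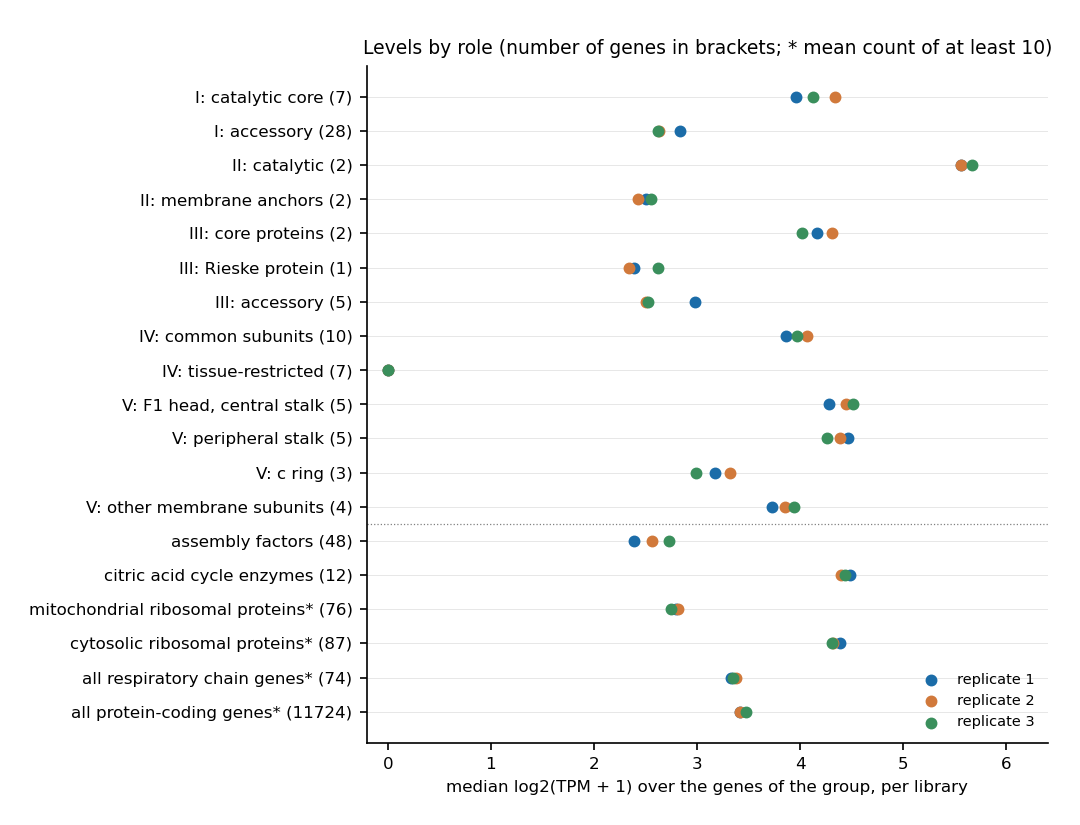
Median log2(TPM + 1) (x axis) of the genes of each role (y axis, number of genes in brackets), with 1 point for each library; groups below the dotted line are other gene lists. The catalytic pair of complex II is highest at 5.60, and the tissue-restricted complex IV genes are at 0.

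The c subunit shows how members that encode 1 product shared its expression. Atp5g1, Atp5g2 and Atp5g3 encode the same mature protein behind different import sequences. Their last 228 coding bases, which hold 75 codons and the stop, are shown from the annotated transcripts because the sequence difference is what lets reads be told apart. Capitals mark the bases at which the 3 genes are not all alike.
Atp5g1: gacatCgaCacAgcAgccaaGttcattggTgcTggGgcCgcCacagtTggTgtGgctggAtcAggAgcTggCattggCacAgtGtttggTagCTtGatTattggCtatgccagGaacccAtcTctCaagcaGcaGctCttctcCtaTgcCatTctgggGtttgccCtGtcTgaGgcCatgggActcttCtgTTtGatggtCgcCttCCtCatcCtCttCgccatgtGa
Atp5g2: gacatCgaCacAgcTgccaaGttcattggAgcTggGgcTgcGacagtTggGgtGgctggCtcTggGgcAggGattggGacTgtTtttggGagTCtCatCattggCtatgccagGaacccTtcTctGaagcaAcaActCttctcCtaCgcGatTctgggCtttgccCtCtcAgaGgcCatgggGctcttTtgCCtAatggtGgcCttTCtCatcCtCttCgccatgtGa
Atp5g3: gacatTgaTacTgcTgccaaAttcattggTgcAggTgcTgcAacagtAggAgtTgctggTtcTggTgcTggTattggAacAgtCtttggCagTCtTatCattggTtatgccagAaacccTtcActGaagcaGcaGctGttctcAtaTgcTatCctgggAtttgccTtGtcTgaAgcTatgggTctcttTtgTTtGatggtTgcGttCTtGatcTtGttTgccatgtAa
These stretches lie at chr11:96073104-96073635, chr15:102663014-102665166 and chr2:73908593-73909296 (mm10, minus strand, introns included in the span). The genes differed at 58 of 228 bases, 52 of them at the third codon position, and at 0 residues after translation. Identity was 85.1% between Atp5g1 and Atp5g2, 79.8% between Atp5g1 and Atp5g3, and 78.5% between Atp5g2 and Atp5g3.

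Atp5g3 was the main source of c-subunit RNA in the chromatin fraction. It read 22.8, 22.2 and 25.4 TPM, Atp5g2 read 8.0, 9.0 and 6.94, and Atp5g1 read 0.61, 1.41 and 0.82. By TPM the 3 genes did not overlap in any library. By counts Atp5g1, at 34, 64 and 73, overlapped Atp5g2, at 46, 62 and 58. Counts are divided by an effective length, which was 4451.1, 2887.8 and 4467.1 nt for Atp5g1 and 464.3, 435.4 and 423.4 nt for Atp5g2. The low TPM share of Atp5g1 therefore depends on this length. Atp5g3 held 72.4% ± 4.28 of the summed TPM, Atp5g2 24.7% ± 3.42 and Atp5g1 2.91% ± 1.25 (SD, n = 3). The order was kept in the read-based tables, where the shares were 62.3% ± 3.97, 27.9% ± 2.84 and 9.77% ± 1.23.

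Genes that work beside the members gave a frame for these levels. Of 12 citric acid cycle genes 12 were above 1 TPM, with a median of 4.44 ± 0.04 on the log2(TPM + 1) scale (SD, n = 3). Dlst, part of the oxoglutarate dehydrogenase complex, read 71.2 ± 4.07 TPM, Idh3b of isocitrate dehydrogenase 64.0 ± 8.13 and its partner Idh3a, the lowest of the list, 4.94 ± 0.779. Of 48 assembly factors 44 passed 1 TPM, with a median of 2.56 ± 0.17. Foxred1, a complex I factor, led them at 35.4 ± 1.21 TPM, followed by the complex IV factor Surf1 at 28.7 ± 0.939, and the complex V factor Fmc1 was lowest at 0.163 ± 0.148.

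Transcription factors and coactivators of nuclear mitochondrial genes were mostly present. Of 13 regulators 12 passed 1 TPM, and 13 did in the read-based tables. Esrra, the oestrogen-related receptor alpha, read 42.6 ± 5.23 TPM and the coactivator Pprc1 26.0 ± 3.28 (SD, n = 3). Ppargc1a, the PGC-1alpha coactivator of muscle and brown fat, had 0, 1 and 2 counts but read 2.02 ± 0.374 TPM in the read-based tables. Subunits outside the symbol rule fell in the range of the members, with Ndufab1, the acyl carrier protein of complex I, at 39.0 ± 2.80 TPM, the ATPase inhibitor Atpif1 at 27.2 ± 1.32 and Usmg5 of complex V at 7.2 ± 0.573.

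The mitochondrially encoded subunits differed more between libraries. Their RNA is made in mitochondria, so the fraction was not free of RNA from outside nuclear chromatin. How much of the members' RNA came from outside chromatin was not tested. mt-Co1, the catalytic subunit of complex IV, read 262.4, 127.0 and 155.4 TPM, and mt-Atp8 of complex V read 148.8, 102.4 and 165.4. Replicate 1 was highest for mt-Co1 and replicate 2 lowest for both. Other genes went the other way or switched to 0. mt-Atp6 had 0, 212 and 0 counts, mt-Co2 0, 193 and 0, mt-Nd3 0, 33 and 0, and mt-Nd4l 33, 0 and 0. In the read-based tables mt-Atp6 read 53.3, 21.3 and 32.6 TPM and mt-Nd4l 36.6, 10.4 and 25.5, but mt-Co2 read 51.6, 34.2 and 0.0482. These genes were named after their values were seen, and the cause of the switches was not tested. mt-Co3 rested on 1 to 2 counts per library in the alignment-based table but read 32.4 ± 7.54 TPM in the read-based one (SD, n = 3).

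No library stood apart for the members. Of the 74 detected members, 23, 24 and 27 were highest in replicates 1, 2 and 3, whereas 39.4%, 28.9% and 31.7% of all 15873 detected genes were. In percent of members these counts are 31.1, 32.4 and 36.5. The lowest value fell in replicate 1 for 29 members, in replicate 2 for 25 and in replicate 3 for 20, with 34.9%, 39.3% and 25.8% of all detected genes. Replicate 1 differed from the mean of the other two by a median of -0.05 on the log2(TPM + 1) scale over members and 0.02 over all detected genes.

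The median SD over libraries was 0.18 for detected members and 0.16 for all detected genes, and the median biological coefficient of variation from edgeR was 0.163 and 0.157. Among members with a mean count of at least 100 the widest were Ndufb7, Ndufs8 and Ndufv3. Ndufb7, a membrane-arm subunit of complex I, read 5.40, 5.26 and 9.40 TPM on 208, 310 and 397 counts, and replicate 3 was the high library. Its effective length also differed, at 3085.9, 3751.7 and 2124.8 nt. Ndufv3, a subunit next to the NADH site, read 8.17, 13.2 and 9.95 TPM, with replicate 2 highest. Below 100 counts, Cox7b (above) and Ndufs5 spread more. Ndufs5, named after its values were seen, read 6.72, 1.91 and 3.08 TPM on 33, 10 and 22 counts. For Cox7b the effective length by which counts are divided also differed, at 259.7, 478.0 and 394.4 nt, and in the read-based tables it read 24, 22 and 16.2 TPM.

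The second deposited quantification, estimated from the reads without prior alignment, gave higher TPM for most members. Of 74 detected members 66 were higher in it, with a median difference of 0.70 on the log2(TPM + 1) scale against 0.33 for all detected protein-coding genes. The share of all those genes that were higher is not given here, but their median difference was also positive. A higher value is therefore no trait of the members alone. A difference of at least 1 was found for 19 members (25.7%), against 14.6% of the 11724 genes. In the other direction 0 members were lower by at least 1, against 0.119% of those genes. The ranks were similar, with a Spearman rho of 0.87 over the 74 members, which share libraries and transcript lengths; it is given as a description.

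The largest gains among members of at least 100 counts were 1.93 for Ndufs8, 1.87 for Sdhc and 1.53 for Cox4i1. Ndufs8 read 45.6, 30.4 and 33.9 TPM in the read-based tables. At the other end stood Atp5s with a difference of -0.24, Atp5b with -0.23 and Cox5a with -0.21. Of the detected members, 23 overlapped an exon of a gene on the opposite strand and 51 did not, and their median differences were 0.70 and 0.69. Among the 11724 detected protein-coding genes 3807 did and 7917 did not, with medians of 0.32 and 0.33. The sources do not state whether counting used strand, so reads of such overlapping genes cannot be told apart.

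**Figure D4:**
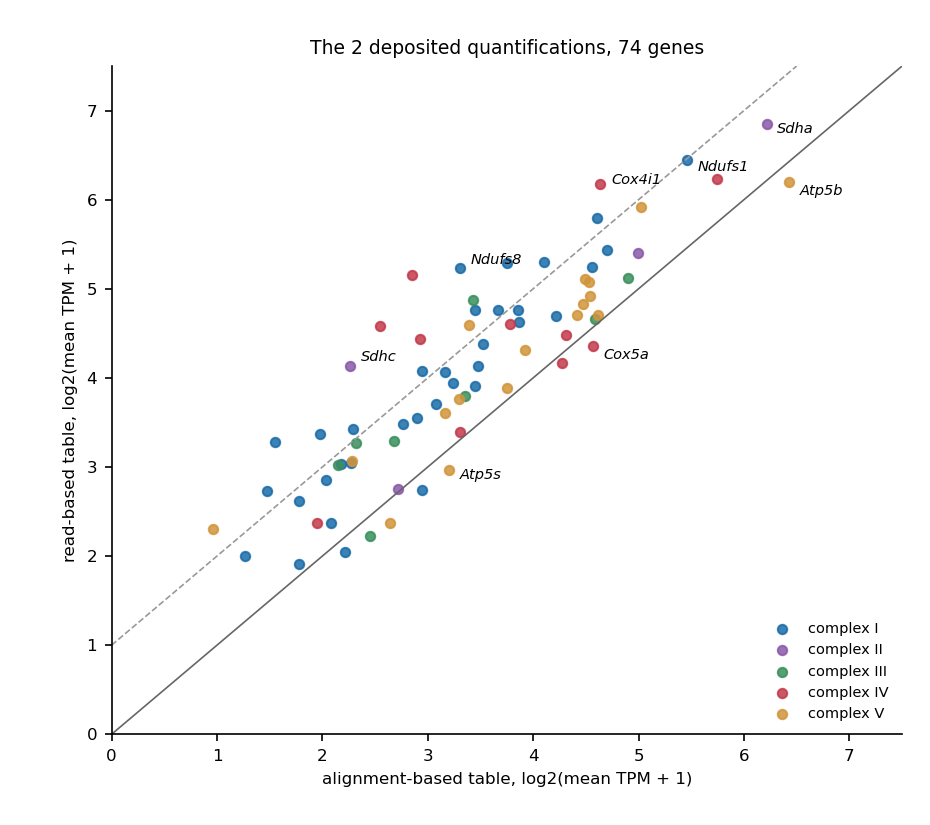
Mean TPM of the 74 detected genes as log2(TPM + 1) in the alignment-based table (x axis) and the read-based table (y axis), coloured by complex. The solid line marks equal values and the dashed line a difference of 1; 66 points lie above the solid line, and Ndufs8, Sdhc and Cox4i1 are among those above the dashed one.

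A large part of the members' RNA was assigned to transcripts annotated as retaining an intron. Of the members' summed TPM, 41.0% ± 1.80 belonged to protein-coding transcripts, 44.1% ± 2.03 to retained intron transcripts, 14% ± 0.451 to processed transcripts and 0.863% ± 0.295 to nonsense-mediated decay transcripts (SD, n = 3). This split was not computed for all genes. A retained intron transcript was annotated for 46 members, of which 45 had at least 1 TPM. In these the share of a gene's TPM in retained intron transcripts had a median of 61.8%, 63.2% and 54.9% in replicates 1, 2 and 3 (60.0% ± 4.42, SD, n = 3). The same median over 6584 protein-coding genes was 46.8% ± 1.24, below the members' value in 3 of 3 libraries. In the read-based tables the medians were 52.0% ± 0.324 and 45.3% ± 0.682. A share of at least 50% was held by 32 of 45 members (71.1%) and by 44.5% of the 6584 genes.

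Ndufa7, an accessory subunit at the NADH-oxidising arm, had the highest share, at 90.9%, 92.7% and 97.9%. Ndufa6, an accessory subunit near the quinone site, followed at 90.3%, 96.0% and 82.0%, and Cox5a at 88.4%, 93.6% and 86.0%. The lowest was Ndufc1, a membrane-arm subunit, listed at 0% in each library. Some of these shares rest on the quantification: in the read-based tables Ndufa6 read 92.8% and Cox5a 90.8%, but Ndufa7 read 30.1% and Ndufc1 41.4%. Among the abundant members, Sdha read 61.8%, 60.4% and 65.2%, Ndufs1 70.6%, 68.2% and 67.1%, and Atp5b 55.8%, 49.6% and 45.0%. Reads common to several isoforms were divided by the authors' software, so these shares are estimates. Intron reads of RNA that is not yet spliced cannot be told apart here from those of retained introns.

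**Figure D5:**
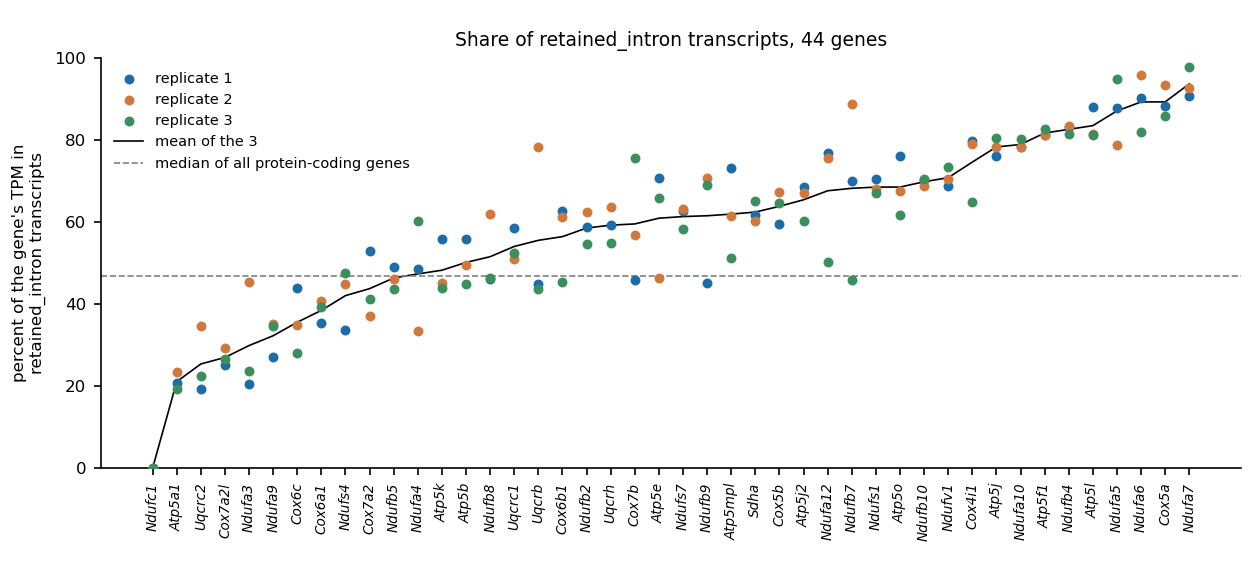
Retained intron share of each gene, in percent of its TPM (y axis), for all but 1 of the 45 genes with such a transcript and at least 1 TPM, ordered by their mean (x axis). Points are libraries, the black line their mean, and the dashed line the median of 46.8% over all protein-coding genes; Ndufa7 stands highest and Ndufc1 lies at 0%.

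Many members are short genes, and some have intronless copies elsewhere in the genome. The median main coding transcript of a member was 750.5 nt, against 2538 nt for all protein-coding genes, and 36 members (42.9%) had one of at most 700 nt, against 5.49% of those genes. Detected members of at most 700 nt had a median of 6.69 TPM on 44.3 counts, and longer ones 9.79 TPM on 121.0 counts. All detected protein-coding genes gave 7.2 and 9.98 TPM, so the members' values were close to the background. Searching the coding sequences against all annotated transcripts found 37 copies of 20 members at 95% identity or more over at least 80% of the coding length, 32 of them processed pseudogenes; the share of all genes with such a copy was not computed. Only 4 copies had a mean count of at least 10. Gm10012, a copy of Cox7c, read 13.3 TPM beside 52.6 ± 5.33 for Cox7c, and Ndufb4c read 16.1 TPM beside 6.71 ± 1.11 for Ndufb4. Gm4853, a copy of Atp5l, read 4.95 TPM, and 4930481A15Rik, an antisense gene that holds a match to Uqcr10, read 1.49. Below 10 counts, Gm11628 read 27.2 TPM beside 5.42 ± 1.26 for Uqcr11, BC002163 read 5.13 beside 3.9 ± 2.51 for Ndufs5, and Gm10175, identical to Atp5g2 in coding sequence, read 1.48. Reads could be split between these members and their copies, so their values are uncertain to that degree. The median difference between quantifications was 0.55 for detected members with a copy and 0.73 for those without.

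Some members shared a feature of position. A protein-coding gene that starts within 1000 bases upstream on the opposite strand, so that the pair diverges, was found for 19 of 84 members (22.6%) and for 6.78% of protein-coding genes. Among detected genes the shares were 24.3% and 10.8%. Neighbours were close in level in some pairs and far apart in others. Sdha stood at 73.3 ± 9.98 TPM and its neighbour Ccdc127, which starts 29 bases away, at 7.71 ± 1.83. Sdhd read 5.59 ± 0.389 and Timm8b, a mitochondrial import gene 98 bases away, 5.87 ± 1.36. Ndufa7 read 12.5 ± 2.28 and the ribosomal protein gene Rps28, 10 bases away, 17.1 ± 1.57. Atp5c1 read 22.1 ± 0.802 and Kin, 83 bases away, 14.1 ± 3.24 (SD, n = 3 for each). These 4 pairs were chosen after their values were seen.

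Promoter sequence from RefSeq (GRCm38.p6, 250 bases before to 50 after each start) was matched to 68 of the 83 symbols, in 73 windows. The 8-letter core of the NRF1 site, GCGCATGC or GCATGCGC on the other strand, occurred in 10 of 73 windows (13.7%) and in 3.51% of 21262 windows of protein-coding genes. The YY1 core AAGATGGC or GCCATCTT also occurred in 10 windows (13.7%), against 3.05%, and no window held both. Of the YY1 matches 8 of 10 lay 22 to 38 bases after the start (in Atp5j2, Ndufa3, Ndufa9, Ndufb8, Ndufc1, Ndufs4, Ndufs6 and Ndufs7). That of Atp5f1 spanned the start, and that of Atp5j lay before it. The ETS core CCGGAAGT or ACTTCCGG, as bound by GABP, was in 5 windows (6.85%) against 5.15%, and TATAAA or TTTATA in 8 windows (11.0%) against 12.6%. GC content was alike, with medians of 57.3% and 56.3%. The 7 NRF1 matches that lie upstream of a start with room on either side are shown in 30 bases each, from the highest member to the lowest, with the core or overlapping cores in capitals.
Sdhb (chr4:140961206-140961235, strand +): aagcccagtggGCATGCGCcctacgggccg
Atp5k (chr5:108434431-108434460, strand -): ctttcactgcgGCGCATGCGCctttctggc
Ndufa6 (chr15:82354356-82354385, strand -): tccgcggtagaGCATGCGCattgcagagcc
Atp5l (chr9:44920963-44920992, strand -): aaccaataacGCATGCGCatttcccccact
Atp5g2 (chr15:102671071-102671100, strand -): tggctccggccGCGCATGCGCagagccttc
Cox6a1 (chr5:115349102-115349131, strand -): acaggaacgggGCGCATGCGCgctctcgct
Ndufa11 (chr17:56717691-56717720, strand +): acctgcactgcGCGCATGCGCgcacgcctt
The match begins 54 bases before the start in Sdhb, 50 in Atp5k, 83 in Ndufa6, 240 in Atp5l, 42 in Atp5g2, 162 in Cox6a1 and 60 in Ndufa11. These starts are those of RefSeq. In GENCODE M21 the stretches of Sdhb and Atp5g2 lie within the gene, and that of Atp5k overlaps its outermost start. In 4 of the 7 (Atp5k, Atp5g2, Cox6a1 and Ndufa11) the core reads on both strands in an overlap of 10 letters. The chromatin-fraction RNA of the 7 genes ranged from 30.9 ± 1.28 TPM for Sdhb to 2.44 ± 0.407 for Ndufa11 (SD, n = 3). A match is a sequence feature and does not show that NRF1, whose own gene Nrf1 read 22.2 ± 2.11 TPM, was bound there.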

How the data were processed

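Chromatin-fraction RNA was sequenced after ribosomal RNA depletion in 3 libraries of 1 group, from 1000, 250 and 500 ng of RNA. Per the README files, the deposited tables use mm10 and GENCODE M21; tools are not named there. The deposited gene-level and alignment-based transcript values are expected counts and TPM, per the file headers. The read-based values are estimated counts and TPM, as deposited by the authors, and were summed per gene here. Isoform percentages, deposited as percent of a gene, were not used. Rows of no annotated gene (1.24%, 0.482% and 0.228% of counts) were left out.

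Levels are log2(TPM + 1), which understates differences of low genes. Limits for genes at 0 use 3 counts and cover counting error only, because PCR reads without such identifiers as UMIs may repeat a molecule. Rounded counts went into edgeR 4.0.16 (an intercept-only dispersion fit, tested on simulated data) and DESeq2 1.42.0 under R 4.3.3; Python 3.11.15 and BLAST 2.17.0 served for the rest. The main coding transcript has the longest coding sequence. Genes were named by rule: the 3 highest and 1 lowest of each complex, paralog pairs, c-subunit genes, Ndufa4, the 3 with the largest SD at 100 counts or more, extremes of the retained intron share and of the difference between tables, and 2 highest and 1 lowest of each list. One gene that this rule names is not reported here. Members named beyond it fill out a role and were chosen after their values were seen. The members, lists and rules were chosen with earlier results of these data known. Libraries differed beyond counting noise (chi-square of at least 17.2 per degree of freedom). Alternatives covered quantification, scaling, pseudocount, filters, members and leaving out each replicate.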

Additional observations from a re-analysis of the deposited data

How the results depend on the processing

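Of 58 alternative settings over 8 followed values, 38 left the value within its spread or, for a count, within 1.5 times the reported count. A reversal could be seen only for the complex V minus complex I difference and the pairing difference, and neither reversed. The other values cannot be negative, or their sign was not labelled. The limit for counts takes no account of how many members or libraries a setting leaves. The median member level was 3.91 in the read-based table, 4.03 with TPM rescaled without features under 200 nt and ribosomal loci, 3.05 with a pseudocount of 0.1, 3.35 for members of at least 1 TPM and 3.29 without tissue-restricted paralogs, against 3.19. The rescaling moved all detected protein-coding genes by a median of 0.84. Complex V exceeded complex I by 0.99 when genes under 1 TPM were dropped, against 0.77. The pairing difference was 3.23 in the read-based table, 3.13 after rescaling and 5.21 with a pseudocount of 0.1, against 2.49. Members highest in replicate 1 numbered 9 of 38 with a mean count of at least 100, against 23 of 74. The share of all genes was computed only for the main setting. This count and those at other settings below have no such share beside them. The median deviation of replicate 1 (-0.05) ranged from -0.07 with a mean count of at least 100 to 0.03 with DESeq2 size factors; its sign also turned after rescaling (0.02) and with edgeR TMM (0.02), all within the spread between libraries. The median spread was 0.13 in the read-based table, 0.20 after rescaling, 0.20 with a pseudocount of 0.1, 0.13 at a mean count of at least 100 and 0.14 on edgeR TMM-scaled counts, against 0.18; leaving out 1 replicate, which computes it from 2 libraries, gave 0.14 to 0.16. The retained intron share was 52.0% in the read-based table and 65.4% with processed transcripts included, against 60.0%. The cause of these shifts was not tested. Members highest in replicate 1 numbered 20 in the read-based table, 26 after rescaling and 28 with TMM or DESeq2 scaling. They numbered 34 when either other replicate was left out, which leaves 2 libraries and cannot be set beside the 23. The count at 1 TPM, 74, was 81 in the read-based table and 54 at 5 TPM. No paired analysis was possible because there is 1 group. Depth limits members under 10 counts, for which libraries cannot be ordered.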
